A study of Xenopus laevis with 12 samples.

Results

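Libraries of Xenopus laevis oocyte RNA labelled as recovered with a Staufen antibody were compared, pair by pair, with libraries labelled as recovered with IgG. The members were the 8 libraries titled Staufen 1 to 4 and IgG 1 to 4, chosen by title from the 12 libraries of the series. In both groups the starting material was lysate of oocytes pooled over stages II and III, from which the fractions of a size exclusion column enriched for L-bodies had been pooled. By their labels, the 4 Staufen-labelled libraries came from immunoprecipitation of that pool with the Staufen antibody, and the 4 IgG-labelled libraries from immunoprecipitation with IgG, the control for RNA that sticks without a specific antibody. No strain, treatment or genotype is given, the oocytes are pools, and the labels do not tie the 4 replicates to separate frogs. The p-values therefore refer to these libraries and may reflect technical variation alone. Those of edgeR were taken with the replicate number as a block unless said otherwise. They refer to the spread left once differences between replicate numbers are removed, not to the full spread among libraries.

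L-bodies are cytoplasmic condensates of RNA and protein in which transcripts bound for the vegetal cortex of the growing oocyte are carried. Staufen is a double-stranded RNA-binding protein, first described in Drosophila, that takes part in mRNA transport along microtubules. In an RNA immunoprecipitation the control with IgG gives the background, and the comparison asks, by its labels, which RNAs were recovered with Staufen beyond it.

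Gene counts per library ran from 14147584 to 18678540 in the Staufen-labelled libraries and from 17433273 to 22103431 in the IgG-labelled ones. Levels are given in CPM, a gene's share of the counts of all tested genes in its library, scaled to a fixed total. The library totals were adjusted by a normalization factor (TMM). Where no read was counted, the limit of 3 counts was 0.161 to 0.212 CPM in the Staufen-labelled libraries and 0.136 to 0.172 CPM in the IgG-labelled ones. This limit was taken on all gene counts of a library without that factor, and covers counting error only. Of reads with a single alignment, those outside exons were 13.4% to 14.8% in the Staufen-labelled libraries and 16.9% to 19.6% in the IgG-labelled ones, lower in 4 of 4 pairs (two-sided exact permutation test, p = 0.0286, the smallest that 4 against 4 can give, adjusted p = 0.0572 over 6 library measures). The sign-flip test over the 4 pairs cannot go below 0.125, which is the value it gave. The number of genes with a count ran from 26816 to 27672 in the Staufen-labelled libraries and from 27962 to 28830 in the IgG-labelled ones, in the same direction in 4 of 4 pairs. Reads without a unique alignment were taken as a share of themselves and the reads with a single alignment. They ran from 23.6% to 24.5% in the Staufen-labelled libraries and from 25.7% to 27.7% in the IgG-labelled ones. The part of these differences in the results below was not tested.

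The labels and the authors' deposited tables of enriched genes did not match. Over the 448 genes of both deposited tables that passed the expression filter across all 12 libraries (445 passed it across the 8 compared here), the log2 fold change of the authors' deposited Staufen table less that of the hnRNPab table lay within 0.1 of the hnRNPab-labelled minus IgG-labelled difference computed here for all 448, with a median gap of 0.014. It lay within 0.1 of the Staufen-labelled minus hnRNPab-labelled difference for 42 of them. No difference between 2 labelled groups gave the values of either table on its own: the nearest, hnRNPab-labelled minus IgG-labelled, lay within 0.1 of the authors' deposited Staufen table for 322 of 2426 genes. The difference compared here, Staufen-labelled minus IgG-labelled, lay within 0.1 of that table for 7 of the 2426, with a median gap of 1.26. Which of the labels or tables names the antibody used was not settled here. If the tables and not the labels name it, no rise or fall given here is a difference of Staufen from IgG. The match would then put the hnRNPab-labelled libraries in the place of Staufen and the IgG-labelled ones in that of hnRNPab. The Staufen-labelled libraries would be left as IgG, and a fall here would be a higher level with hnRNPab. Under it the deposited Staufen table would follow hnRNPab-labelled minus Staufen-labelled, which lay within 0.1 for 250 of 2426 genes (median gap 0.489). The deposited hnRNPab table would follow IgG-labelled minus Staufen-labelled, which lay within 0.1 for 20 of 1930 genes (median gap 0.901). For that table IgG-labelled minus hnRNPab-labelled was nearer, within 0.1 for 198 (median gap 0.517). Beyond these gaps the reading was not tested. Therefore each library is called by its label and each deposited table by its own name.

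With the replicate number as a block, 20364 of 51061 genes passed the expression filter, 4102 of them (20.1%) were higher and 4774 (23.4%) lower in the Staufen-labelled than in the IgG-labelled libraries. A gene was called when its adjusted p in edgeR's quasi-likelihood test was below 0.05. Most of these differences were small. The median called gene differed by 1.26-fold in either direction; the quartiles of called genes lay between 0.23 and 0.52 on the log2 scale when higher and between -0.52 and -0.23 when lower, and 141 and 135 of them differed by more than 2-fold. A test for a fold beyond 1.5 called 309 genes higher (1.52%) and 288 lower (1.41%). A CPM is a share of one library, so a larger share of one RNA cannot be told apart from smaller shares of others. It does not give the amount of RNA recovered.

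**Figure D1:**
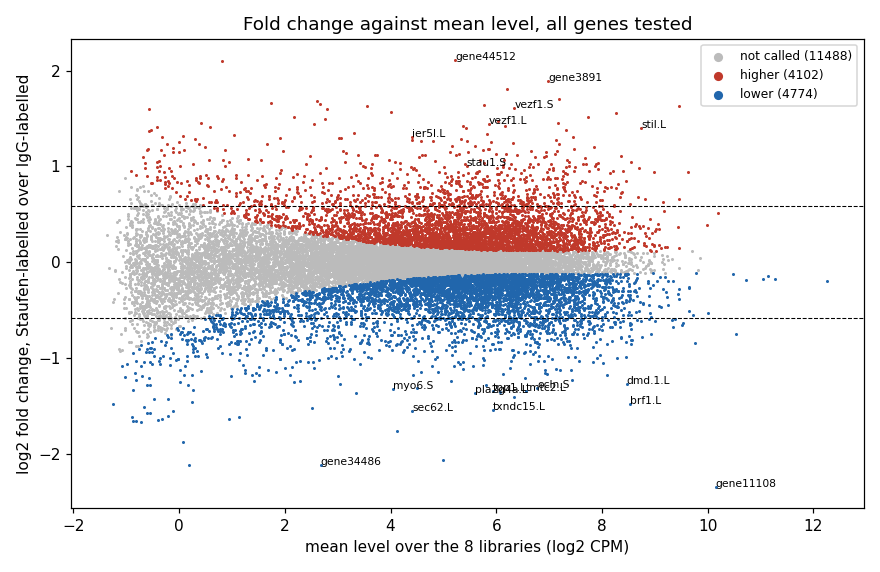
Each point is 1 of 20364 genes, with its mean level over the 8 libraries (log2 CPM) on the horizontal axis and its log2 fold change, Staufen-labelled over IgG-labelled, on the vertical axis. Red points were called higher (4102), blue points lower (4774), and dashed lines mark a fold of 1.5. The points of largest fold, gene44512 upward and gene11108 downward, are marked, and most called points lie between the dashed lines.

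The calls rest on the pairing. Libraries of the same number deviated together from their group means, with correlations across genes of 0.885, 0.82, 0.873 and 0.876 for replicates 1 to 4. Of the summed squares of the log2 CPM, the replicate number held 81.7%, the antibody label 12.5% and the residual 5.85%. Without the block, 702 genes (3.45%) were higher and 484 (2.38%) lower. Higher genes were then 59.2% of those called, against 46.2% with the block. The balance also turned without pair 3 (3922 higher and 3610 lower), so it is not a firm result. With the block the fit has 3 residual degrees of freedom, and the spread of each gene is pooled with that of the other genes (median prior degrees of freedom 57.1), so the smallest p-values rest on that pooling. Replicate 1 stood apart most often: of 19 groups of 4 libraries of named genes in which 1 library lay far from the other 3, that library was of replicate 1 in 18. Without pair 1, 4271 genes were higher and 4402 lower.

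Directions were also counted pair by pair. Of all tested genes, 4928 (24.2%) were higher in 4 of 4 pairs and 5610 (27.5%) lower in 4 of 4. Of the called genes, 3812 of 4102 and 4412 of 4774 had 4 pairs in their direction. The calls came from a test on these same pairs, so the agreement among called genes is largely built in. In 1370 genes (6.73%) the lowest Staufen-labelled library lay above the highest IgG-labelled one, and in 1202 (5.9%) the highest Staufen-labelled library lay below the lowest IgG-labelled one. The share called grew with the level of the gene, with 8.93% of genes below 1 CPM, 34% of those between 5 and 20 CPM and 68.7% of those above 100 CPM.

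The largest named rise was in vezf1.S (gene7337), which encodes a zinc finger transcription factor. Its levels in replicates 1 to 4 were 80.03, 129, 141 and 140.5 CPM in the Staufen-labelled libraries, against 30.3, 44.3, 42.6 and 41.9 CPM in the IgG-labelled ones. The groups did not overlap, and replicate 1 was the lowest library of each (log2 fold change 1.61, SE 0.0564, edgeR adjusted p = 3.5e-33). Its homeolog vezf1.L (gene16961), the copy on the other subgenome of this allotetraploid frog, had 58.1, 84.99, 95.98 and 100.1 CPM in the Staufen-labelled libraries, against 23.5, 32.9, 31.7 and 35.98 CPM in the IgG-labelled ones. The groups again stood apart, with replicate 1 lowest in each (log2 fold change 1.44, SE 0.0572, edgeR adjusted p = 1.53e-30).

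The centriole duplication gene stil.L (gene12998) had the highest counts of the 12 largest rises. Its levels were 573, 544, 650.01 and 721 CPM in the Staufen-labelled libraries, against 239.9, 225, 231 and 242 CPM in the IgG-labelled ones. The IgG-labelled libraries were close to each other, and each Staufen-labelled library had more than 2 times the level of its pair (log2 fold change 1.40, SE 0.053, edgeR adjusted p = 1.71e-31). Its homeolog stil.S (gene32957) had few counts, with 0.903, 1.12, 1.98 and 1.11 CPM in the Staufen-labelled libraries, against 0.810, 0.637, 0.474 and 0.324 CPM in the IgG-labelled ones, but also differed (log2 fold change 1.15, SE 0.311, edgeR adjusted p = 0.00168, and 0.139 without the block).

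RNA-processing genes were among the rises. The gene rbm7.L (gene2527), whose human counterpart is an RNA-binding subunit of a nuclear exosome targeting complex, had 83.3, 97.3, 131 and 139 CPM in the Staufen-labelled libraries, against 38.3, 47.4, 48.01 and 55.1 CPM in the IgG-labelled ones. All Staufen-labelled libraries lay above all IgG-labelled ones (log2 fold change 1.24, SE 0.0568, edgeR adjusted p = 1.54e-27). The homeolog rbm7.S (gene2370) rose as well, with 35.1, 45.1, 56.7 and 71.4 CPM in the Staufen-labelled libraries, against 17.4, 21.99, 25.5 and 30.3 CPM in the IgG-labelled ones (log2 fold change 1.12, SE 0.0616, edgeR adjusted p = 7.78e-24). An RNA triphosphatase gene, dusp11.S (gene5993), had 241, 218, 280.1 and 242 CPM in the Staufen-labelled libraries, against 109.5, 100.3, 125 and 96.95 CPM in the IgG-labelled ones. No library of one group reached the other (log2 fold change 1.18, SE 0.0514, edgeR adjusted p = 1.02e-28).

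Of transcription regulators, tfap2c.S (gene18947), an AP-2 factor gene, had 161, 191, 206 and 199.7 CPM in the Staufen-labelled libraries, against 81.02, 109, 75.1 and 81.6 CPM in the IgG-labelled ones. Here the lowest Staufen-labelled library exceeded the highest IgG-labelled one by far (log2 fold change 1.13, SE 0.0605, edgeR adjusted p = 1.79e-24). The coactivator gene crtc2.L (gene109), whose product binds CREB, had 20.1, 38.7, 38.5 and 35.02 CPM in the Staufen-labelled libraries, against 8.05, 14.3, 16.5 and 22.3 CPM in the IgG-labelled ones. Each Staufen-labelled library exceeded its own pair, but the groups overlapped through replicate 1 of Staufen and replicate 4 of IgG (log2 fold change 1.12, SE 0.0807, edgeR adjusted p = 1.12e-18, and 0.079 without the block). It was the only one of the 12 largest rises listed in the authors' deposited hnRNPab table, the other 11 being in the deposited Staufen table alone.

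The remaining large rises were ier5l.L (log2 fold change 1.31), the neuronal pentraxin receptor gene nptxr.L (1.11), c3orf38.L (1.03) and trpc4ap.L (1.03), which in human encodes a substrate receptor of a cullin ubiquitin ligase. In each of these 4 the groups did not overlap. Levels of trpc4ap.L were 289, 235, 282 and 302 CPM in the Staufen-labelled libraries, against 142, 125, 135 and 139 CPM in the IgG-labelled ones, all 4 pairs differing by about the same factor. The 12 were higher by 2.04-fold to 3.05-fold, and 11 of the 12 were called without the block.

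The transcript of a Staufen gene itself, stau1.S (gene20), stood close behind them. It had 48.5, 60.5, 67.7 and 55.3 CPM in the Staufen-labelled libraries, against 26.9, 29.1, 35.6 and 24.3 CPM in the IgG-labelled ones. Every Staufen-labelled library lay above every IgG-labelled one (log2 fold change 1.01, SE 0.0602, edgeR adjusted p = 3.36e-22). The antibody binds the protein, so the level of this mRNA does not check the labels, and stau2 and hnrnpab carried no name here and were not analysed.

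The largest named fall was in sec62.L (gene2044), which encodes a subunit of the protein translocation machinery of the ER. Its levels were 7.55, 11.5, 9.90 and 13.95 CPM in the Staufen-labelled libraries, against 18.9, 34.7, 30.8 and 42.5 CPM in the IgG-labelled ones. Each Staufen-labelled library lay far below its pair, replicate 1 was the lowest of each group, and the groups did not overlap (log2 fold change -1.55, SE 0.0767, edgeR adjusted p = 4.67e-26). The thioredoxin-domain gene txndc15.L (gene5144) had 29.2, 26.05, 30.9 and 37.9 CPM in the Staufen-labelled libraries, against 77.8, 82.00, 76.9 and 128 CPM in the IgG-labelled ones. The groups stood apart although replicate 4 of IgG was well above the other 3 (log2 fold change -1.54, SE 0.0602, edgeR adjusted p = 7.44e-31). Another gene of the secretory pathway, tmtc2.L (gene13764), whose human counterpart is an ER-resident protein that adds mannose, had 64.8, 42.6, 47.6 and 58.7 CPM in the Staufen-labelled libraries, against 135, 110.5, 128 and 171 CPM in the IgG-labelled ones (log2 fold change -1.35, SE 0.0578, edgeR adjusted p = 6.38e-29).

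The gene brf1.L (gene13586), in human nomenclature that of a subunit of a general transcription factor of RNA polymerase III, was also lower. It had 162, 211, 201 and 201 CPM in the Staufen-labelled libraries, against 426, 604, 526 and 615 CPM in the IgG-labelled ones. Replicate 1 was the lowest library in each group, and the groups did not overlap (log2 fold change -1.48, SE 0.0516, edgeR adjusted p = 2.78e-33). The dystrophin gene dmd.1.L (gene13968) had 193, 198, 223 and 208 CPM in the Staufen-labelled libraries, against 421, 482, 496 and 606 CPM in the IgG-labelled ones. The 4 Staufen-labelled libraries were close together and far below the other group (log2 fold change -1.28, SE 0.0544, edgeR adjusted p = 4.93e-29).

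The cytosolic phospholipase gene pla2g4a.L (gene8590) had 19.2, 28.1, 27.7 and 32.7 CPM in the Staufen-labelled libraries, against 45.3, 78.4, 67.8 and 88.2 CPM in the IgG-labelled ones (log2 fold change -1.37, SE 0.0592, edgeR adjusted p = 9.85e-29). The lysosomal peptidase gene tpp1.L (gene42146) had 30.3, 40.01, 35.8 and 32.6 CPM in the Staufen-labelled libraries, against 70.7, 94.6, 87.7 and 99.04 CPM in the IgG-labelled ones (log2 fold change -1.34, SE 0.0584, edgeR adjusted p = 1.09e-28). Neither gene had overlapping groups. The axin2.S gene (gene10843), which encodes a scaffold of the complex that destroys beta-catenin, had 98.8, 113, 94.9 and 107 CPM in the Staufen-labelled libraries, against 209.5, 254, 250.04 and 257 CPM in the IgG-labelled ones. Its groups lay far apart, replicate 1 of IgG being the lowest of its own group (log2 fold change -1.23, SE 0.0529, edgeR adjusted p = 7.16e-29).

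The other falls were -1.33 on the log2 scale for myo6.S, an actin motor gene, -1.32 for ocln.S, which encodes the tight junction protein occludin, and -1.21 for exoc8.S, a subunit gene of the exocyst. The transcription factor gene nfx1.S fell by 1.18 on the same scale. Of the 12 largest falls, exoc8.S (gene16172) alone had overlapping groups, with 31.99, 56.1, 66.3 and 69.99 CPM in the Staufen-labelled libraries, against 67.8, 134, 154 and 167 CPM in the IgG-labelled ones. Each pair differed in the same direction, while replicate 1 of IgG lay below replicate 4 of Staufen (log2 fold change -1.21, SE 0.0534, edgeR adjusted p = 2.49e-28, and 0.0586 without the block). All 12 falls were in the authors' deposited hnRNPab table alone, and they were lower by 2.26-fold to 2.93-fold.

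**Figure D2:**
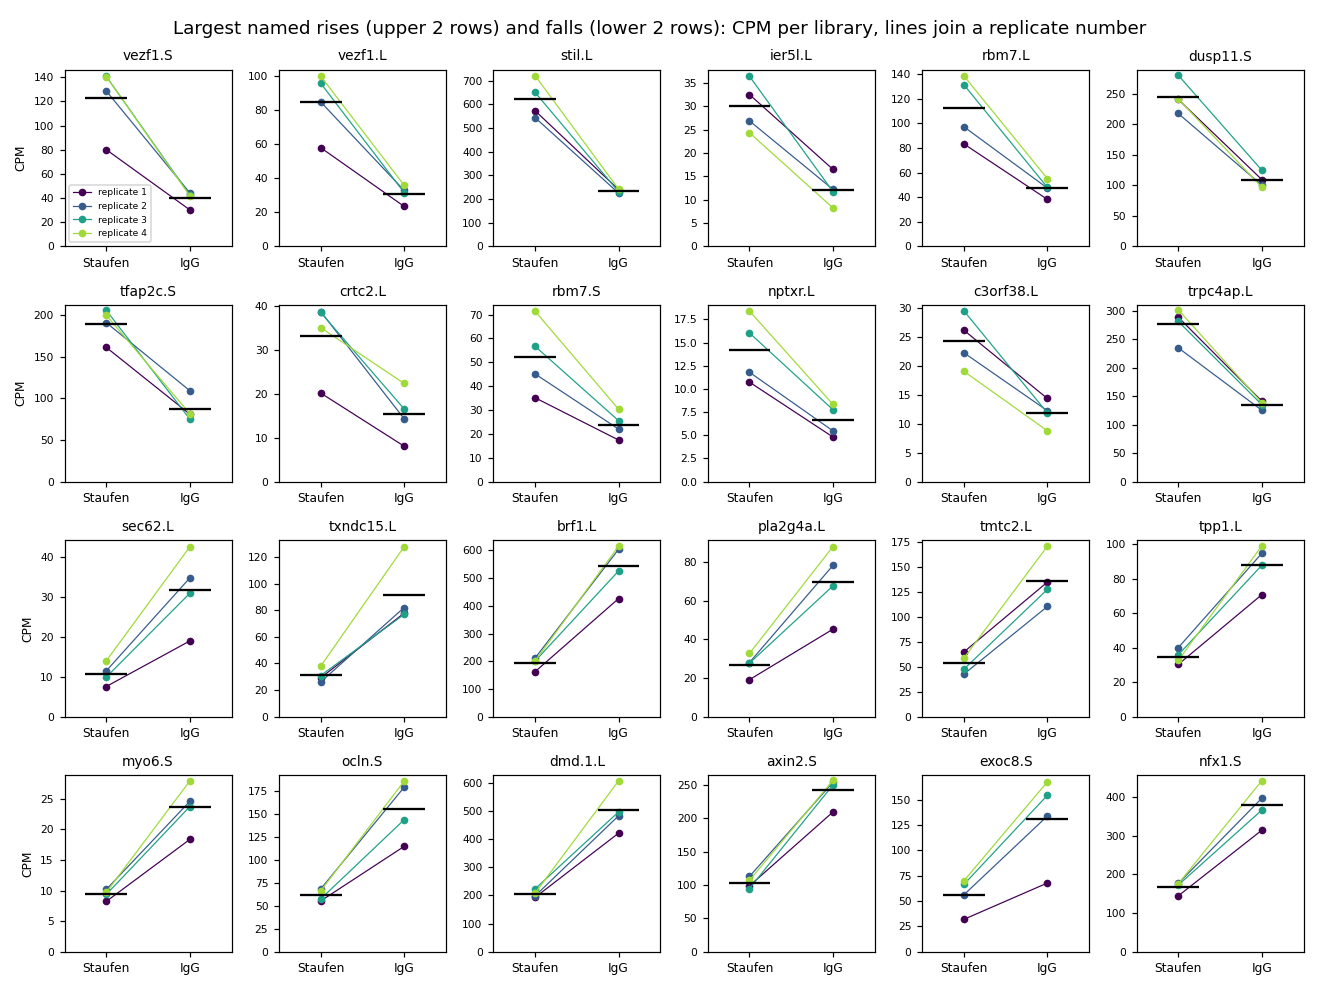
Levels of the 12 largest named rises (upper rows) and 12 largest named falls (lower rows) in CPM on the vertical axis, with the 4 Staufen-labelled libraries at the left and the 4 IgG-labelled libraries at the right of each panel. Lines join libraries of the same replicate number and black bars are group means. Every line slopes the same way within a panel because only genes with 4 of 4 pairs in the same direction were chosen. The groups overlap in crtc2.L and exoc8.S only.

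Most of the larger rises were in genes without a name, as were most of the genes tested. Of the 309 genes higher by more than 1.5-fold, 253 had no label in the deposited tables, as had 16480 of the 20364 genes tested. Of the 288 genes lower by more than 1.5-fold, 100 had no label. The ID with the largest rise, gene44512, had 26.5, 91.5, 57.8 and 67.3 CPM in the Staufen-labelled libraries, against 5.41, 18.4, 15.04 and 17.4 CPM in the IgG-labelled ones (log2 fold change 2.11, SE 0.0691, edgeR adjusted p = 1.13e-34). Another, gene3891, had 129.7, 218, 223 and 231 CPM in the Staufen-labelled libraries, against 39.98, 58.6, 55.1 and 60.4 CPM in the IgG-labelled ones (log2 fold change 1.89, SE 0.0547, edgeR adjusted p = 2.64e-37). In both, replicate 1 was the lowest library of each group.

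The largest fall of all was in gene11108. It had 216, 420.1, 436 and 407 CPM in the Staufen-labelled libraries, against 999, 2415, 2131 and 2081 CPM in the IgG-labelled ones. The groups were more than 2 times apart at their nearest libraries, and replicate 1 was again the lowest of each (log2 fold change -2.35, SE 0.0532, edgeR adjusted p = 3.83e-43). The ID gene34486 had 1.75, 2.93, 3.04 and 1.89 CPM in the Staufen-labelled libraries, against 7.69, 12.6, 11.2 and 9.95 CPM in the IgG-labelled ones (log2 fold change -2.12, SE 0.131, edgeR adjusted p = 1.43e-21). Names are known here only for genes that the authors had listed as enriched, so the identity of these 4 IDs is not given.

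Named genes were shifted towards lower levels, and the shift followed the deposited table they came from. Of 2787 tested genes with a usable name, 616 (22.1%) were higher and 1204 (43.2%) lower in the Staufen-labelled libraries. From the authors' deposited Staufen table alone 1962 genes were tested, 640 (32.6%) of them higher and 336 (17.1%) lower, with a median log2 fold change of 0.06. From the deposited hnRNPab table alone 1481 were tested, 97 (6.55%) of them higher and 1079 (72.9%) lower, with a median of -0.37. The 445 genes in both tables lay between, with 60 (13.5%) higher, 250 (56.2%) lower and a median of -0.22.

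Genes of neither table were near balance over all calls, with 3305 of 16476 (20.1%) higher, 3109 (18.9%) lower and a median of -0.00118. The contrast between the deposited tables was sharper for larger folds. Beyond 1.5-fold there were 44 rises and 0 falls among genes listed for Staufen alone, and 10 rises and 171 falls among those listed for hnRNPab alone. Genes of neither table were not balanced at that fold, with 253 rises and 100 falls. Over all named genes, 47 (1.69%) were higher and 130 (4.66%) lower by that test. The authors chose these tables on libraries of this series, so the tables are not independent evidence of a direction. The lists below were made from names and name patterns, and a gene can stand in more than one. Their counts can be read beside the share over all named genes and, where it is given, the table their members came from. A value after log2 is a gene's log2 fold change in the fit with the block, where it passed unless said otherwise.

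**Figure D3:**
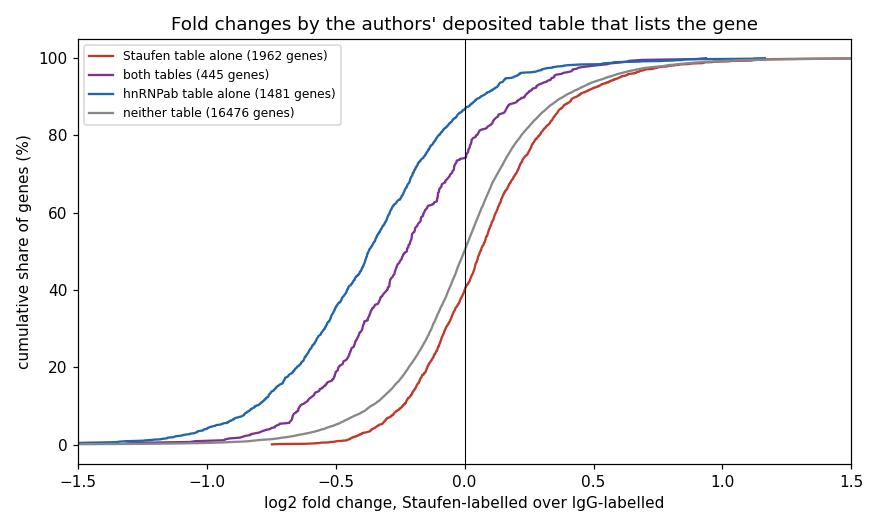
Cumulative share of genes (percent, vertical axis) up to each log2 fold change, Staufen-labelled over IgG-labelled (horizontal axis, drawn from -1.5 to 1.5), by the authors' deposited table that lists the gene. The curve of the hnRNPab table alone lies left of 0 for most of its 1481 genes (median -0.37), that of both tables less so (-0.22), and that of the Staufen table alone lies to the right (0.06).

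Of transcripts known to be localized to the vegetal cortex, 9 with a name were tested, 5 of them higher and 2 lower, with a median log2 fold change of 0.32, beside 22.1% and 43.2% over all named genes. None of the 7 was called without the block. The RNA-binding protein gene bicc1.L (gene2612) led, with 304, 379, 227 and 285 CPM in the Staufen-labelled libraries, against 187, 218, 132 and 181 CPM in the IgG-labelled ones. The lowest Staufen-labelled library, replicate 3, lay just above the highest IgG-labelled one, replicate 2 (log2 fold change 0.73, SE 0.0502, edgeR adjusted p = 1.25e-19, and 0.0553 without the block). The homeolog bicc1.S (gene3384) had 98.4, 107, 98.8 and 93.7 CPM in the Staufen-labelled libraries, against 79.2, 84.97, 80.6 and 73.7 CPM in the IgG-labelled ones, with no overlap (log2 fold change 0.32, SE 0.0511, edgeR adjusted p = 2.76e-07, and 0.0592 without the block).

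The T-box factor gene vegt.S (gene2660), needed for endoderm, had 192, 144, 142 and 136 CPM in the Staufen-labelled libraries, against 133, 106, 102 and 92.4 CPM in the IgG-labelled ones. Replicate 1 was the highest library of each group, and every Staufen-labelled library lay above every IgG-labelled one (log2 fold change 0.50, SE 0.0506, edgeR adjusted p = 5.39e-13, and 0.0915 without the block). The ligand gene wnt11b.L (gene7098), of dorsal axis formation, had 117, 91.7, 76.9 and 79.9 CPM in the Staufen-labelled libraries, against 88.00, 67.02, 56.8 and 58.1 CPM in the IgG-labelled ones. It was higher in 4 of 4 pairs, while the groups overlapped (log2 fold change 0.44, SE 0.0517, edgeR adjusted p = 9.64e-11, and 0.232 without the block).

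Of the copies of zfp36l2, which encodes a zinc finger protein that binds AU-rich elements, zfp36l2.S (gene11893) was at log2 0.37, adjusted p = 0.191 without the block, and zfp36l2.L (gene12439) at log2 0.02 (SE 0.0503) did not pass. The remodeller gene atrx.L (gene42048) had 215, 411, 359 and 291 CPM in the Staufen-labelled libraries, against 261, 505, 447 and 401 CPM in the IgG-labelled ones. It was lower in 4 of 4 pairs with overlapping groups (log2 fold change -0.34, SE 0.0499, edgeR adjusted p = 4.25e-08, and 0.584 without the block). A deadenylase adaptor gene, tob2.L (gene14248), was also lower (log2 fold change -0.23, SE 0.0505, edgeR adjusted p = 9.31e-05, and 0.741 without the block), and tob2.S (gene15207) at log2 0.11 did not pass (adjusted p = 0.0849) but passed in 5 of the other settings (0.0221 to 0.0472), among them those without pair 1 (0.0472) and without pair 3 (0.0409). By table, the 4 members of the Staufen table alone were all higher, and of the 4 listed for hnRNPab alone 1 was higher and 2 were lower.

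Of 3 germ cell genes, mael.L (gene7270), of the piRNA pathway, was higher (log2 fold change 0.42, SE 0.0514, edgeR adjusted p = 2.41e-10, and 0.422 without the block), with 135, 89.04, 138 and 85.7 CPM in the Staufen-labelled libraries, against 97.6, 65.6, 108 and 63.3 CPM in the IgG-labelled ones. Both copies of nr6a1, the germ cell nuclear factor gene, were lower. The copy nr6a1.S (gene46190) had 48.9, 49.9, 45.02 and 47.8 CPM in the Staufen-labelled libraries, against 75.3, 85.4, 79.03 and 90.98 CPM in the IgG-labelled ones, with groups far apart (log2 fold change -0.78, SE 0.0549, edgeR adjusted p = 3.42e-19), and nr6a1.L (gene29696) was at log2 -0.64.

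Among 11 mRNAs of transport particle proteins, 3 were higher (all in the Staufen table alone) and 5 lower (all in the hnRNPab table alone). These were 27.3% and 45.5%, near the 22.1% and 43.2% over all named genes. Without the block the 3 rises and none of the falls were called. Beside stau1.S, the stress granule gene caprin1.S (gene9547) rose, with 347, 262, 272 and 272 CPM in the Staufen-labelled libraries, against 231, 169, 186 and 162 CPM in the IgG-labelled ones (log2 fold change 0.63, SE 0.0504, edgeR adjusted p = 1e-16). Its homeolog caprin1.L (gene7819) rose too, by log2 0.46. The kinesin-1 heavy chain gene kif5b.L (gene6633) had 68.2, 118, 101 and 120.4 CPM in the Staufen-labelled libraries, against 105, 147, 161 and 222 CPM in the IgG-labelled ones. It was lower in 4 of 4 pairs, but the libraries spread by replicate number and the groups overlapped (log2 fold change -0.63, SE 0.0571, edgeR adjusted p = 1.52e-14, and 0.194 without the block). The gene elavl1.L (gene10263), whose product binds AU-rich RNA, was at log2 -0.42, adjusted p = 0.0784 without the block.

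Storage and deadenylation factors had 7 of 32 higher and 12 lower (21.9% and 37.5%), near the 22.1% and 43.2% over all named genes. Their median was -0.0037, and 3 and 3 were called without the block. The largest rise was in pan3.S (gene44273), a deadenylase subunit gene, with 174, 214, 226 and 216 CPM in the Staufen-labelled libraries, against 102, 111, 118 and 103 CPM in the IgG-labelled ones (log2 fold change 0.93, SE 0.052, edgeR adjusted p = 1.41e-23). The decay factor gene zfp36l1.S (gene20212) rose by log2 0.87. The translational regulator gene cpeb4.S (gene40664) had 72.8, 82.3, 75.3 and 90.1 CPM in the Staufen-labelled libraries, against 116, 149.7, 150.2 and 165 CPM in the IgG-labelled ones, with no overlap (log2 fold change -0.85, SE 0.0531, edgeR adjusted p = 2.24e-21). The Argonaute gene ago1.S (gene3494) fell too (log2 -0.64).

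Cell cycle genes were more often higher than lower. In the list of oocyte maturation and cell cycle genes, 12 of 22 were higher and 2 lower (median 0.15). These were 54.5% and 9.09%, beside 22.1% and 43.2% over all named genes. Of the 22, 20 were in the Staufen table alone, where 11 were higher against a share of 32.6% over that table. The changes were small, none beyond 1.5-fold by the test for it, and 1 rise and 1 fall were called without the block. The anaphase-promoting complex gene cdc27.L (gene1557) had 95.7, 92.1, 91.1 and 89.1 CPM in the Staufen-labelled libraries, against 67.96, 63.1, 65.3 and 58.7 CPM in the IgG-labelled ones (log2 fold change 0.53, SE 0.052, edgeR adjusted p = 1.98e-13). The kinase gene cdk2.L (gene19544) was at log2 0.53, adjusted p = 0.0803 without the block.

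The kinase gene mos.L (gene3865), whose product drives meiotic maturation, went the other way, with 614, 458, 513 and 465 CPM in the Staufen-labelled libraries, against 827, 706, 759.5 and 812 CPM in the IgG-labelled ones. The 4 Staufen-labelled libraries lay below all IgG-labelled ones (log2 fold change -0.61, SE 0.0517, edgeR adjusted p = 1.1e-15), and mos.L was the member in the hnRNPab table alone. The second fall was that of fbxo43.S (gene2229), which encodes an inhibitor of the anaphase-promoting complex (log2 fold change -0.15, SE 0.0524, edgeR adjusted p = 0.0154, and 0.826 without the block). That call was lost over all 12 libraries (adjusted p = 0.134), and without pair 1 (adjusted p = 0.0591), pair 3 (0.206) or pair 4 (0.07).

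In 5 replication and repair genes, 2 were higher and 1 lower (40% and 20%), beside 22.1% and 43.2% over all named genes. The licensing factor gene cdc6.L (gene9532) had 246, 162, 139.9 and 147 CPM in the Staufen-labelled libraries, against 206, 129, 122 and 133 CPM in the IgG-labelled ones. Replicate 1 was far above the other libraries of both groups, and the difference within pairs was slight (log2 fold change 0.23, SE 0.0505, edgeR adjusted p = 0.000121, and 0.749 without the block). Its homeolog cdc6.S (gene8757) was at log2 0.12, adjusted p = 0.924 without the block, and lost its call without pair 1 (adjusted p = 0.071) or pair 2 (0.25). The translesion polymerase gene polk.L (gene9477) was lower (log2 -0.34, adjusted p = 0.631 without the block).

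The centrosome, spindle and kinetochore list had 11 of 19 higher and 4 lower (median 0.14), and 3 rises and 0 falls without the block. These were 57.9% and 21.1% with the block, beside 22.1% and 43.2% over all named genes. Of its 14 members in the Staufen table alone, 10 were higher, beside 32.6% over that table. Beside stil.L, the centromere protein gene cenpn.S (gene37467) rose, with 59.7, 52.7, 69.8 and 57.6 CPM in the Staufen-labelled libraries, against 34.4, 33.8, 38.9 and 30.7 CPM in the IgG-labelled ones (log2 fold change 0.80, SE 0.0577, edgeR adjusted p = 1.35e-18). Of the falls, the ciliary and centrosomal gene cep41.S (gene17642) was at log2 -0.59, adjusted p = 0.36 without the block, and cep89.L (gene12126) at log2 -0.46, adjusted p = 0.495 without the block.

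General transcription genes had 7 of 18 higher and 3 lower (median 0.08, and 3 and 1 without the block). These were 38.9% and 16.7%, beside 22.1% and 43.2% over all named genes. The TFIID subunit gene taf4.L (gene37839) had 59.4, 62.2, 55.9 and 55.03 CPM in the Staufen-labelled libraries, against 33.1, 32.7, 25.99 and 30.2 CPM in the IgG-labelled ones. The groups were well apart (log2 fold change 0.93, SE 0.0588, edgeR adjusted p = 4.07e-21). Both copies of tbp, which encodes the TATA-binding protein, rose: tbp.S (gene7569) by log2 0.59 and tbp.L (gene3192) by log2 0.51. The largest fall of the list was brf1.L, given above, and med27.L (gene51049), a Mediator subunit gene, was at log2 -0.21, adjusted p = 0.634 without the block. The med27.L call was lost over all 12 libraries (adjusted p = 0.0578), under DESeq2 (0.086), with all libraries thinned to the smallest (0.0522) and without pair 3 (0.655), which left 1 of the 3 falls of the list.

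Of 183 genes of DNA-binding transcription factors, 53 were higher and 73 lower (median -0.04), and 8 and 10 without the block. The shares were 29% and 39.9%, beside 22.1% and 43.2% over all named genes. By table, 34 of the 85 members listed for Staufen alone were higher and 15 lower, and 8 and 39 of the 65 listed for hnRNPab alone. The zinc finger gene sp1.L (gene41989) had 568, 609, 672 and 625 CPM in the Staufen-labelled libraries, against 927, 1106, 1207 and 1226 CPM in the IgG-labelled ones. The groups did not overlap (log2 fold change -0.85, SE 0.0502, edgeR adjusted p = 2.27e-22). The largest rises of the list were the vezf1 copies, and atf1.S (gene10195), a CREB family gene in the Staufen table alone, rose by log2 0.70. Its homeolog atf1.L (gene46197), in both deposited tables, was called in the other direction (log2 -0.28, edgeR adjusted p = 9.3e-06).

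Chromatin genes fell more than they rose, with 10 of 60 higher and 27 lower (16.7% and 45%), near the 22.1% and 43.2% over named genes, and 3 and 0 without the block. In the Staufen table alone, 7 of 34 were higher and 14 lower, beside 32.6% and 17.1% over that table. The bromodomain gene brd3.S (gene50065) had 165, 182, 174 and 153 CPM in the Staufen-labelled libraries, against 95.1, 91.1, 84.6 and 73.8 CPM in the IgG-labelled ones. Its groups were far apart (log2 fold change 0.97, SE 0.0524, edgeR adjusted p = 3.29e-24). Others were prdm2.L (gene4095), a methyltransferase-domain gene (log2 0.68, adjusted p = 0.19 without the block), brd1.S (gene9314, log2 -0.69, adjusted p = 0.0945 without the block) and ino80d.S (gene12601), a remodeller subunit gene (log2 -0.60, adjusted p = 0.066 without the block).

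Splicing factor and hnRNP genes had 4 of 28 higher and 14 lower (14.3% and 50%), beside 22.1% and 43.2% over all named genes. Without the block 2 and 2 were called. Of the 13 members listed for hnRNPab alone 12 were lower, beside 72.9% over that table. The 4 rises were 2 without pair 2. The rbm7 copies headed the rises. The m6A-related gene rbm15.S (gene13155) had 51.2, 47.6, 55.98 and 62.8 CPM in the Staufen-labelled libraries, against 85.01, 97.1, 106 and 123.5 CPM in the IgG-labelled ones (log2 fold change -0.91, SE 0.0544, edgeR adjusted p = 2.57e-22). The gene of the RNA-binding protein Quaking, qki.L (gene2613), had 62.5, 85.97, 85.4 and 94.3 CPM in the Staufen-labelled libraries, against 98.3, 139, 141 and 143 CPM in the IgG-labelled ones. Replicate 1 of IgG was the lowest of its group and still lay above every Staufen-labelled library (log2 fold change -0.67, SE 0.0513, edgeR adjusted p = 1.8e-17).

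Of 51 genes of other RNA helicases, decay and modification factors, 12 were higher and 20 lower, and 3 and 5 without the block. The shares of 23.5% and 39.2% were near the 22.1% and 43.2% over all named genes. Of the 24 members listed for Staufen alone 9 were higher, and of the 18 listed for hnRNPab alone 12 were lower. Over those tables the shares were 32.6% and 72.9%. The microRNA processing nuclease gene drosha.S (gene41572) was higher, with 168, 182, 202 and 247 CPM in the Staufen-labelled libraries, against 98.5, 114, 109 and 131 CPM in the IgG-labelled ones (log2 fold change 0.81, SE 0.0517, edgeR adjusted p = 5.21e-21). The gene of the other nuclease of that pathway, dicer1.L (gene2469), was lower, with 155, 217, 175 and 199.7 CPM in the Staufen-labelled libraries, against 228, 381, 282 and 332 CPM in the IgG-labelled ones (log2 fold change -0.70, SE 0.0511, edgeR adjusted p = 2.35e-18). Neither had overlapping groups. Falls were also seen in exosc5.L (gene49911), an exosome subunit gene (log2 -0.77), and nxf1.S (gene1909), an mRNA export receptor gene (log2 -0.74).

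Genes of the secretory pathway and of ER folding fell, 15 of 24 against 1 that rose (62.5% and 4.17%, median -0.24). Over all named genes 43.2% were lower and 22.1% higher. Without the block 4 falls and 0 rises were called. Of these 24, 15 were in the hnRNPab table alone, where 14 were lower beside a share of 72.9% over that table. Besides sec62.L, txndc15.L and tmtc2.L, the homeolog sec62.S (gene14562) fell, with 13.02, 20.3, 21.3 and 25.7 CPM in the Staufen-labelled libraries, against 22.4, 41.1, 36.3 and 42.7 CPM in the IgG-labelled ones (log2 fold change -0.82, SE 0.0674, edgeR adjusted p = 2.14e-16, and 0.0984 without the block). The rise was in eif2ak3.S (gene7661), an ER stress kinase gene, with 183, 195, 202 and 180.4 CPM in the Staufen-labelled libraries, against 162, 169, 169 and 153 CPM in the IgG-labelled ones. It was small, though the groups did not overlap (log2 fold change 0.22, SE 0.0497, edgeR adjusted p = 0.000168, and 0.163 without the block).

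Vesicle traffic genes had 14 of 73 higher and 39 lower (19.2% and 53.4%), beside 22.1% and 43.2% over all named genes. Without the block 1 and 9 were called. Of the 39 members in the hnRNPab table alone 31 were lower, beside 72.9% over that table. The synaptic vesicle chaperone gene dnajc5.S (gene4962) had 211, 201, 289 and 239.98 CPM in the Staufen-labelled libraries, against 397, 428, 511 and 532 CPM in the IgG-labelled ones (log2 fold change -0.99, SE 0.0524, edgeR adjusted p = 1.07e-24). The GTPase gene rab8a.S (gene3057), of transport to the plasma membrane, had 102, 119, 128 and 123.1 CPM in the Staufen-labelled libraries, against 154, 233, 244 and 262 CPM in the IgG-labelled ones, with no overlap (log2 fold change -0.90, SE 0.0554, edgeR adjusted p = 1.22e-21). Among the rises were arl5c.S (gene45471), an Arf-like GTPase gene (log2 0.79), and napa.L (gene10683), a gene of SNARE disassembly (log2 0.49, adjusted p = 0.113 without the block).

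Lipid and phosphoinositide genes had 6 of 53 higher and 29 lower (11.3% and 54.7%), beside 22.1% and 43.2% over all named genes. Without the block 2 and 8 were called. Of the 28 members listed for hnRNPab alone 24 were lower, beside 72.9% over that table. Besides pla2g4a.L, the stearoyl-CoA desaturase gene scd.L (gene15220) fell, with 85.2, 91.3, 62.98 and 129.9 CPM in the Staufen-labelled libraries, against 158, 211, 142 and 307 CPM in the IgG-labelled ones. Libraries of both groups moved with the replicate number, and the groups did not overlap (log2 fold change -1.13, SE 0.0542, edgeR adjusted p = 1.39e-26). The phosphoinositide phosphatase gene ocrl.S (gene22) fell by 1.05 on the log2 scale. Of the rises, the sphingomyelin synthase gene sgms1.L (gene3804) was at log2 0.54 and the lipid kinase gene pip4k2b.L (gene8970) at log2 0.35, adjusted p = 0.191 without the block.

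Transporter and channel genes had 18 of 125 higher and 62 lower (14.4% and 49.6%), beside 22.1% and 43.2% over all named genes. Without the block 3 and 11 were called. The Staufen table alone held 17 of the rises, and the hnRNPab table alone 43 of the falls. The membrane transporter gene slc4a11.L (gene50172) had 213, 213, 241 and 190.4 CPM in the Staufen-labelled libraries, against 128, 117, 145 and 127 CPM in the IgG-labelled ones (log2 fold change 0.73, SE 0.0515, edgeR adjusted p = 4.98e-19). The phospholipid flippase gene atp10d.L (gene9494) rose by log2 0.58. The calcium channel subunit gene cacnb4.L (gene9207) fell (log2 -1.06), as did the phosphate transporter gene slc20a2.S (gene6080, log2 -0.84).

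Kinase genes had 27 of 78 higher and 31 lower, and 5 and 8 without the block. These were 34.6% and 39.7%, beside 22.1% and 43.2% over all named genes. Most rises (22) were among the 36 members in the Staufen table alone, and most falls (25) among the 34 in the hnRNPab table alone. The proto-oncogene pim3.S (gene20098) had 781, 598, 698 and 603 CPM in the Staufen-labelled libraries, against 380.1, 319, 357 and 339 CPM in the IgG-labelled ones, and each Staufen-labelled library was far above all IgG-labelled ones (log2 fold change 0.94, SE 0.05, edgeR adjusted p = 1.89e-24). The stress kinase gene mapkapk2.S (gene10462) rose by log2 0.81. The p21-activated kinase gene pak5.L (gene15718) had 78.1, 86.03, 88.7 and 96.7 CPM in the Staufen-labelled libraries, against 139, 182, 195 and 195 CPM in the IgG-labelled ones (log2 fold change -1.02, SE 0.053, edgeR adjusted p = 6.42e-25). The gene camkk2.S (gene4966), of calcium signalling, was at log2 -0.98, adjusted p = 0.0705 without the block.

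Phosphatase genes had 12 of 51 higher and 26 lower (23.5% and 51%), beside 22.1% and 43.2% over all named genes. Without the block 5 and 3 were called. Of the 27 members listed for Staufen alone 11 were higher, and of the 19 listed for hnRNPab alone 17 were lower. Over those tables the shares were 32.6% and 72.9%. The regulatory subunit gene ppp6r3.L (gene2719) rose by log2 0.79, beside dusp11.S, which this list also holds. The MAP kinase phosphatase gene dusp7.L (gene15704) was at log2 -0.67, adjusted p = 0.0768 without the block, and ctdspl.L (gene16035), of the family that acts on the RNA polymerase II tail, at log2 -0.61, adjusted p = 0.261 without the block.

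Of 102 ubiquitin system genes, 25 were higher and 44 lower (24.5% and 43.1%), close to the shares over all named genes, and 5 and 11 without the block. Of the 57 members listed for Staufen alone 22 were higher, and of the 37 listed for hnRNPab alone 30 were lower. Over those tables the shares were 32.6% and 72.9%. The ligase gene cbll1.S (gene2301), listed in the hnRNPab table alone, rose, with 62.3, 93.7, 106 and 105 CPM in the Staufen-labelled libraries, against 35.7, 53.4, 51.5 and 61.7 CPM in the IgG-labelled ones (log2 fold change 0.85, SE 0.0543, edgeR adjusted p = 5.17e-21). The F-box gene fbxo31.L (gene9315) had 77.1, 76.96, 66.3 and 83.4 CPM in the Staufen-labelled libraries, against 169, 186, 127 and 206 CPM in the IgG-labelled ones. No library of one group reached the other (log2 fold change -1.16, SE 0.0546, edgeR adjusted p = 4.63e-27). The ligase subunit genes dcaf12.L (gene10825, log2 0.73) and vhl.L (gene17712, log2 -0.86, adjusted p = 0.132 without the block) went in opposite directions.

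Wnt pathway genes had 11 of 32 higher and 11 lower (34.4% each, and 1 and 2 without the block). Over all named genes 22.1% were higher and 43.2% lower. After wnt11b.L and axin2.S, bcl9l.S (gene123), a beta-catenin cofactor gene, rose by log2 0.39, and the receptor gene fzd5.S (gene3812) was at log2 -0.61, adjusted p = 0.14 without the block. TGF-beta, nodal and BMP pathway genes had 7 of 30 higher and 12 lower (1 and 3 without the block). These were 23.3% and 40%, near the shares over all named genes. The nodal effector gene foxh1.L (gene48387) had 332, 255, 267 and 287 CPM in the Staufen-labelled libraries, against 204, 163, 153 and 142 CPM in the IgG-labelled ones (log2 fold change 0.79, SE 0.053, edgeR adjusted p = 5.42e-20). The copy foxh1.S (gene18491) was at log2 0.68, adjusted p = 0.202 without the block.

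The endosomal Smad-binding protein gene zfyve16 fell in both copies. The copy zfyve16.S (gene12043) had 63.5, 60.9, 82.5 and 51.8 CPM in the Staufen-labelled libraries, against 124, 126, 176 and 116 CPM in the IgG-labelled ones (log2 fold change -1.07, SE 0.0526, edgeR adjusted p = 4.28e-26), and zfyve16.L (gene17892) was at log2 -0.83. Cytoskeleton, motor and adhesion genes had 12 of 45 higher and 16 lower (26.7% and 35.6%), beside 22.1% and 43.2% over all named genes. Without the block 2 and 2 were called. Of the 25 members listed for Staufen alone 11 were higher, and of the 16 listed for hnRNPab alone 13 were lower. Over those tables the shares were 32.6% and 72.9%. The microtubule plus-end gene clip1.S (gene12507) had 41.9, 77.3, 79.6 and 94.00 CPM in the Staufen-labelled libraries, against 93.2, 167, 149 and 188 CPM in the IgG-labelled ones. It was lower in 4 of 4 pairs, and replicate 1 of IgG lay just below the highest Staufen-labelled library (log2 fold change -1.04, SE 0.0531, edgeR adjusted p = 2.51e-25, and 0.0661 without the block). The septin gene sept8.L (gene50190) rose by log2 0.51 and the kinesin gene kif7.L (gene5686) by log2 0.44.

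Few members of the remaining lists had a name. Of 7 translation genes 2 were higher and 1 lower (28.6% and 14.3%, beside 22.1% and 43.2% over all named genes), and none was called without the block. Among them were rps26.L (gene2399), a ribosomal protein gene (log2 -0.23, adjusted p = 0.245 without the block), and nars.L (gene11351), an asparaginyl-tRNA synthetase gene (log2 0.32, adjusted p = 0.186 without the block). With library sizes alone as the scale, 4 of the 7 were higher. The name pattern for mitochondrial genes matched 19, of which 2 were higher and 7 lower (10.5% and 36.8%, beside 22.1% and 43.2% over all named genes). It also caught names such as mtpn.L (gene3597, log2 0.60) and mtss1l.S (gene13461, log2 -0.54, adjusted p = 0.311 without the block) whose products are not mitochondrial. A true member, ogdh.L (gene12448), of the citric acid cycle, was at log2 0.14, adjusted p = 0.798 without the block, and lost its call without pair 2 (adjusted p = 0.112).

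Of 3 reference transcripts, both tbp copies were higher and the histone gene hist1h4a.L (gene39582) was at log2 -0.19, adjusted p = 0.892 without the block, a call lost in 8 of the other settings with the block, among them those without pair 1 (0.0705), pair 3 (0.17) and pair 4 (0.128). The yolk receptor family gene lrp8.S (gene8862) had 87.3, 66.6, 68.98 and 69.7 CPM in the Staufen-labelled libraries, against 143, 128, 137 and 151 CPM in the IgG-labelled ones (log2 fold change -0.93, SE 0.0548, edgeR adjusted p = 1.42e-22). The tissue label could not be checked by names of oocyte genes, since only genes the authors had listed as enriched carried a name. Of the oocyte genes, mos.L and vegt.S were present at the levels given, while zp2, zp3, zp4, zar1, dazl, gdf9, bmp15, figla and velo1 had no name here and were not analysed. Of markers of other cells, 2 follicle genes had names, of which sox9.L (gene4277) had 4.09, 8.52, 6.73 and 7.45 CPM in the Staufen-labelled libraries, against 1.67, 3.35, 5.09 and 4.40 CPM in the IgG-labelled ones. It was higher in 4 of 4 pairs with overlapping groups (log2 fold change 0.90, SE 0.14, edgeR adjusted p = 1.6e-07, and 0.225 without the block). The other, foxo1.L (gene35330), had 58.7, 73.3, 50.5 and 61.1 CPM in the Staufen-labelled libraries, against 52.5, 72.2, 48.8 and 74.8 CPM in the IgG-labelled ones and did not pass (log2 fold change -0.02, SE 0.0574, edgeR adjusted p = 0.806). The 1 named blood gene, slc4a1.L (gene10349), had 41.6, 29.5, 27.1 and 28.02 CPM in the Staufen-labelled libraries, against 35.98, 28.04, 27.1 and 25.7 CPM in the IgG-labelled ones and did not pass either (log2 fold change 0.11, SE 0.0635, edgeR adjusted p = 0.167). No stromal or endothelial marker had a name, and the part of other cells in the results was not tested.

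**Figure D4:**
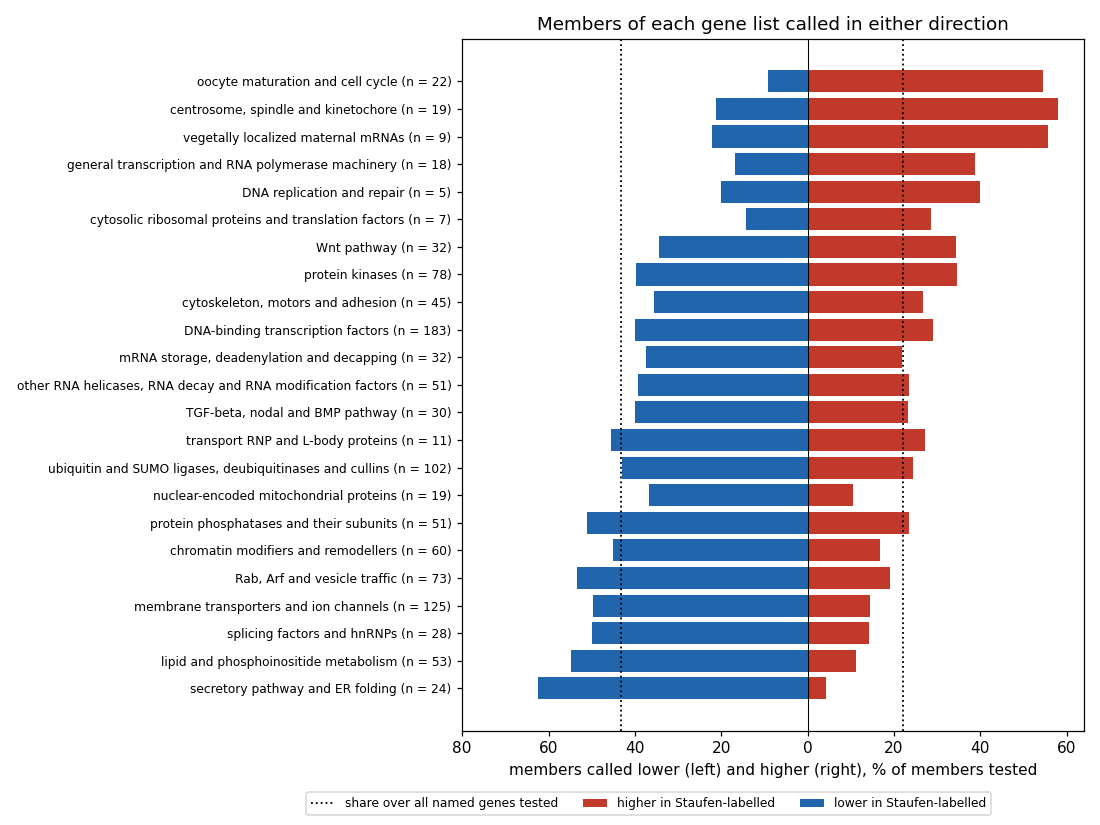
Share of tested members (percent, horizontal axis) called higher in the Staufen-labelled libraries (red, right of 0) and lower (blue, left of 0) for each list with 5 or more tested members, with the number of members beside its name. Dotted lines mark the shares over all named genes, 22.1% higher and 43.2% lower. The maturation list has 54.5% higher and 9.09% lower, and the secretory list at the bottom has 4.17% higher and 62.5% lower.

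Of the named genes with the most counts, on a scale that does not take gene length into account, the histone genes differed little. The gene h2afx.L (gene13554) had 6787, 3822, 4195 and 3621 CPM in the Staufen-labelled libraries, against 7389, 4260.1, 4810.5 and 4499.8 CPM in the IgG-labelled ones. Replicate 1 was far above the other numbers in both groups, and the fall within pairs was slight (log2 fold change -0.20, SE 0.0489, edgeR adjusted p = 0.000608, and 0.858 without the block). The histone genes hist2h3c.L (gene49471, log2 -0.18, adjusted p = 0.9 without the block) and hist1h2bj.S (gene49174, log2 -0.14, adjusted p = 0.93 without the block) were also lower, and the call of hist1h2bj.S was lost without pair 2 (adjusted p = 0.15) or pair 4 (0.0798). A larger fall was that of ankrd52.S (gene12078), a phosphatase regulatory subunit gene, with 1106, 1103, 1188 and 991 CPM in the Staufen-labelled libraries, against 1609, 1902, 1985 and 1912 CPM in the IgG-labelled ones (log2 fold change -0.75, SE 0.052, edgeR adjusted p = 1.96e-19). The repressor gene hic2.L (gene37354) was at log2 -0.53, adjusted p = 0.106 without the block.

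Among genes of high counts that were higher, etv3.L (gene6745), an ETS repressor gene, had 559.8, 586, 675 and 587 CPM in the Staufen-labelled libraries, against 432, 510.04, 488 and 459.8 CPM in the IgG-labelled ones. The groups did not overlap (log2 fold change 0.35, SE 0.0501, edgeR adjusted p = 2.56e-08, and 0.0691 without the block). Others were fam46b.S (gene19219), of the poly(A) polymerase-like family (log2 0.32, adjusted p = 0.146 without the block), dstyk.S (gene41065), a kinase gene (log2 0.16, adjusted p = 0.686 without the block), and slbp.L (gene6668), which encodes the histone stem-loop binding protein (log2 0.15, adjusted p = 0.687 without the block). The slbp.L call was lost without pair 2 (adjusted p = 0.142).

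Both homeologs of a gene had a name and were tested in 491 pairs. Both copies were higher in 70 pairs, both lower in 152, called in opposite directions in 38, 1 of them called in 169 and neither in 62. The fold changes had the same sign in 75.2% of pairs, and their Pearson correlation was 0.608 over the 491 pairs, a description, since copies share libraries and reads of near-identical copies can be misassigned. In 344 pairs both copies were in the same deposited table, and 18 of these were opposite. The .L copies overall were 21.2% higher and 44.8% lower, and the .S copies 23.1% and 41.1%.

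Some pairs parted clearly, and those named here were chosen after their values were seen. The growth factor gene hbegf.L (gene14957) had 76.8, 76.3, 81.7 and 83.5 CPM in the Staufen-labelled libraries, against 115, 122, 124 and 137 CPM in the IgG-labelled ones (log2 fold change -0.65, SE 0.0515, edgeR adjusted p = 8.19e-17). The copy hbegf.S (gene8378) had 182, 201, 219 and 209 CPM in the Staufen-labelled libraries, against 122, 149.8, 153 and 143 CPM in the IgG-labelled ones (log2 fold change 0.52, SE 0.0502, edgeR adjusted p = 1.38e-13). So hbegf.L was below and hbegf.S above its IgG-labelled libraries without overlap, although both copies stand in both deposited tables.

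The same held within the Staufen table alone for kctd6 and for vezt. The gene kctd6.L (gene5413), of an adaptor for a cullin ligase, had 73.9, 67.9, 69.5 and 55.7 CPM in the Staufen-labelled libraries, against 88.96, 92.6, 98.4 and 85.4 CPM in the IgG-labelled ones, and kctd6.S (gene6453) had 41.5, 35.5, 48.3 and 36.1 CPM in the Staufen-labelled libraries, against 27.7, 27.6, 32.9 and 24.2 CPM in the IgG-labelled ones. They were at log2 -0.46 (SE 0.0542) and log2 0.52 (SE 0.0619, adjusted p = 0.064 without the block). For the adhesion gene vezt, the copy vezt.L (gene14869) was at log2 0.58 (SE 0.0627) and vezt.S (gene4797) at log2 -0.40 (SE 0.0638, adjusted p = 0.0826 without the block). The homeologs of the largest falls also varied: axin2.L (gene50943), in the Staufen table alone, was at log2 -0.19, adjusted p = 0.429 without the block, and myo6.L (gene39536) at log2 -0.15 (SE 0.129) did not pass.

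**Figure D5:**
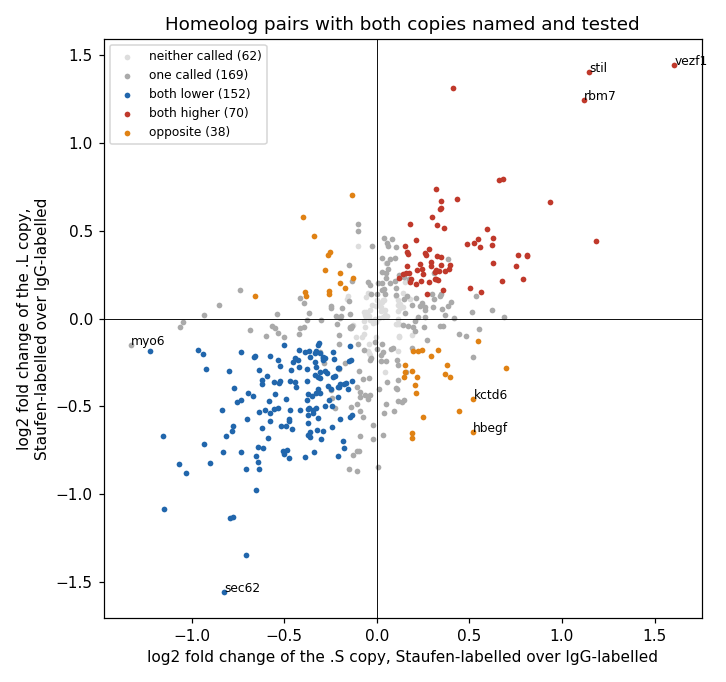
Log2 fold change, Staufen-labelled over IgG-labelled, of the .S copy (horizontal axis) against the .L copy (vertical axis) of 491 homeolog pairs, coloured by which copies were called. Most called pairs lie in the lower left (152 both lower) and upper right (70 both higher), and 38 pairs in the other quadrants have copies called in opposite directions, hbegf and kctd6 among them.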

How the data were processed

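RNA was sequenced as 150 bp paired reads, per the labels. The authors deposited whole-number counts per gene, with no normalization, and alignment and counting tools are STAR 2.6.1b and HTSeq 0.9.1, per the submitters' processing notes, which also list edgeR. No genome build or annotation is named, and strandedness is likewise not given in the sources used here, so overlapping and antisense genes are uncertain, as are homeologs. Per the file headers, the authors' deposited tables hold log2 fold changes and log2 CPM, an F score, and p-values and adjusted p-values. Every listed gene had a log2 fold change of at least 0.85.

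Names came from these tables (2787 of 20364 tested genes, or 3884 with placeholder labels), and 26 names were shared by 56 tested IDs. Of the names, 90% matched symbols of assembly Xenopus_laevis_v10.1. Lines for reads outside exons, shared between genes (0.521% to 0.632%) and without a unique alignment stayed out of totals and tests.

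For the 8 libraries, counts were fitted with edgeR 4.0.16 under R 4.3.3 (default filterByExpr, TMM, replicate number and group as terms, quasi-likelihood F test, Benjamini-Hochberg adjustment over all genes tested at 0.05, and glmTreat for a fold beyond 1.5). CPM used TMM-scaled library sizes over the genes tested. The SE of a log2 fold change is its size divided by the square root of F. The block was kept because same-numbered libraries deviated together in every pair. The fit was also run on counts simulated from its own model, which cannot show that the calls hold in these libraries.

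Members and the 29 lists were chosen with earlier results of these data known. Named genes were the 12 largest rises and 12 largest falls with at least 5 CPM and 4 pairs in 1 direction, the antibody targets, up to 2 rises and 2 falls a list, the 5 of highest CPM in each direction, every vegetally localized transcript, and 2 unnamed IDs in each direction. Values of some genes this rule covers are left out. Named outside this rule, after their values were seen, were the copies of other named genes, ago1.S, atf1.S, dicer1.L, rab8a.S, ocrl.S, foxo1.L, slc4a1.L and the homeolog pairs said to be so. Alternatives were limma 3.58.1, DESeq2 1.42.0, other scalings and filters, all 12 libraries, no block and leaving out each pair.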

Additional observations from a re-analysis of the deposited data

Results flagged for a closer look

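Of 252 sets examined, each 1 gene in the 4 libraries of 1 group, 19 held a library far from the other 3. Chance would give about 1 in 20 in independent sets. These sets share the same 8 libraries, which deviate together by number, so that rate is no test of them. In 18 of these the library was of replicate 1.

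In the Staufen-labelled libraries, replicate 1 was low for nfx1.S at 144.5 CPM (the others 172.5 to 176.7), for gene3891 at 129.7 (217.6 to 230.5) and for gene11108 at 215.6 (407.1 to 435.5). It was high for vegt.S at 191.8 CPM (136.1 to 144.3), for caprin1.S at 346.6 (261.7 to 272.1), for lrp8.S at 87.31 (66.62 to 69.71) and for the histone gene hist1h2bj.S at 3201 (1688 to 1895).

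In the IgG-labelled libraries, replicate 1 was low for vezf1.S at 30.26 CPM (41.95 to 44.34), axin2.S at 209.5 (250.0 to 256.8), tob2.L at 148.0 (255.8 to 260.8), brd1.S at 130.5 (210.4 to 226.7), ino80d.S at 414.7 (601.5 to 637.6) and qki.L at 98.27 (139.4 to 143.3). It was high for the replication genes cdc6.L at 206.1 CPM (122.2 to 133.1) and cdc6.S at 220.8 (127.1 to 141.3), for mapkapk2.S at 40.43 (30.01 to 31.3) and for the histone genes hist2h3c.L at 3626 (2229 to 2332) and hist1h2bj.S at 3410 (1947 to 2089).

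The set without replicate 1 was txndc15.L, for which replicate 4 of IgG had 127.7 CPM (the others 76.89 to 82.0). The values without pair 1 stand with the leave-one-out ranges.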

How the results depend on the processing

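With the replicate block, the counts of 4102 higher and 4774 lower genes stayed within 1.5 times their size under every alternative run, and no named gene reversed. Without the replicate block 702 and 484 genes were called, 30 of them beyond 1.5-fold, and 48 of 122 named genes lost their call. Under DESeq2, 317 genes instead of 597 passed the test beyond 1.5-fold (3311 higher and 3591 lower in all, 1185 adjusted p-values not given), and the cause was not tested. Leaving out each pair gave 3578 to 4271 higher, 3610 to 4402 lower and 451 to 677 beyond 1.5-fold. The balance of 46.2% of called genes higher turned with library sizes and no TMM factor (4628 higher and 4153 lower, 52.7%), without pair 3 (3922 and 3610, 52.1%), with genes kept at 1 CPM in 4 libraries (4403 and 4392), with thinning and without the block (59.2%). Scaling moved the median of all genes by at most 0.0293. Thinning all libraries to the smallest, added after seeing the data, gave 4235 higher, 4230 lower and 559 beyond 1.5-fold. Of genes under 1 CPM, 8.93% were called, and the part of depth in this was not tested.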
